A study of Mus musculus with 12 samples.

Results

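Mest is a paternally expressed imprinted gene on mouse chromosome 6, and its DNA methylation was followed here from embryonic stem cells to germ cells. All rows carrying its Ensembl identifier, ENSMUSG00000051855, were taken from the deposited levels, and CpG islands and island shores overlapping the gene or lying within 2000 bp of it were added. This gave 4 regions of 176831 listed in the series: 1 promoter row, 1 row for all exons, 1 row for all introns and 1 island shore. No 5' or 3' untranslated row and no island row was among the levels used here for this gene. All 4 regions had a level in each of the 12 libraries.

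Genomic imprinting is the expression of a gene from only 1 parental copy, and it is carried by DNA methylation that differs between the egg and sperm genomes. Mest, the mesoderm-specific transcript, encodes a protein of the alpha/beta hydrolase fold family. In somatic cells the maternal copy is methylated at the promoter and silent, and the unmethylated paternal copy is expressed. In cells with a copy from each parent, a region that keeps its imprint is therefore read at an intermediate level in bulk DNA. This reading does not hold for cells with only maternal genomes, which have no paternal copy. Primordial germ cells (PGCs), from which eggs and sperm later form, erase such marks during their development before new ones are set.

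The assay was RRBS, a reduced representation form of bisulfite sequencing in which the enzyme MspI cuts DNA at CCGG and bisulfite conversion separates methylated from unmethylated cytosines near the cuts. There were 6 groups of 2 libraries, all given in the labels as C57BL6. The cultured starting cells were a female embryonic stem cell line (ESCs) and a parthenogenetic line (pESCs), which comes from an activated oocyte and so carries only maternal genomes. The germ cells were PGCs of embryonic days 9.5 (E9.5) and 12.5 (E12.5), which the study took from female embryos, and PGC-like cells (PGCLCs) induced in culture from the ESCs or from the pESCs. The PGCLCs went through an epiblast-like stage and were then grown with BMP4, SCF, EGF and LIF, after which the study sorted them by the surface markers SSEA1 and CD61. The study describes the libraries of a group as biological replicates, and the labels do not say which cultures or litters they came from, so the p-values below measure only the spread between these libraries. A level is the percentage of CG calls in a region that were methylated. The levels came without read numbers, and their depth is therefore unknown. Each library listed between 144375 and 166476 features. No RNA was measured in these libraries, so cell identity could only be set beside promoter methylation. The promoter of the germ cell gene Ddx4 was methylated at 11.5% ± 2.19 in ESCs and 10.7% ± 0.479 in pESCs. Its E9.5 PGC mean was 72.6% ± 0.392, and the later PGCs and both kinds of PGCLC lay between 43.6% and 46.7% (SD, n = 2 each).

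Mest lies on the plus strand of chromosome 6 at 30723547 to 30748465 (GRCm38), where GENCODE M21 annotates 11 transcripts. The 7 protein-coding transcripts start at 6 different positions, from 30723547 to 30738053. CpG sites were densest around the most downstream of these starts, that of Mest-211 at 30738050 and of Mest-202 at 30738053. The 2000 bp before 30738050 held 72 CpGs and 2 MspI sites, against 22 CpGs and 1 MspI site in the 2000 bp before the most upstream start. The shore runs from 30738499 to 30740500, inside the gene, and covers the end of the dense stretch. Of its 35 CpGs, 25 lie in introns and 10 in annotated exons, so the shore shares CpGs with both of those rows and the 4 regions are not independent measurements. In the levels used here 92.5% of the 9141 downstream shores began exactly at the end of a listed island. The 1000 bp before the Mest shore held 69 CpGs and 3 MspI sites at an observed to expected CpG ratio of 0.76, and no island level was listed there. The start from which the authors measured the promoter row was not stated.

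**Figure D1:**
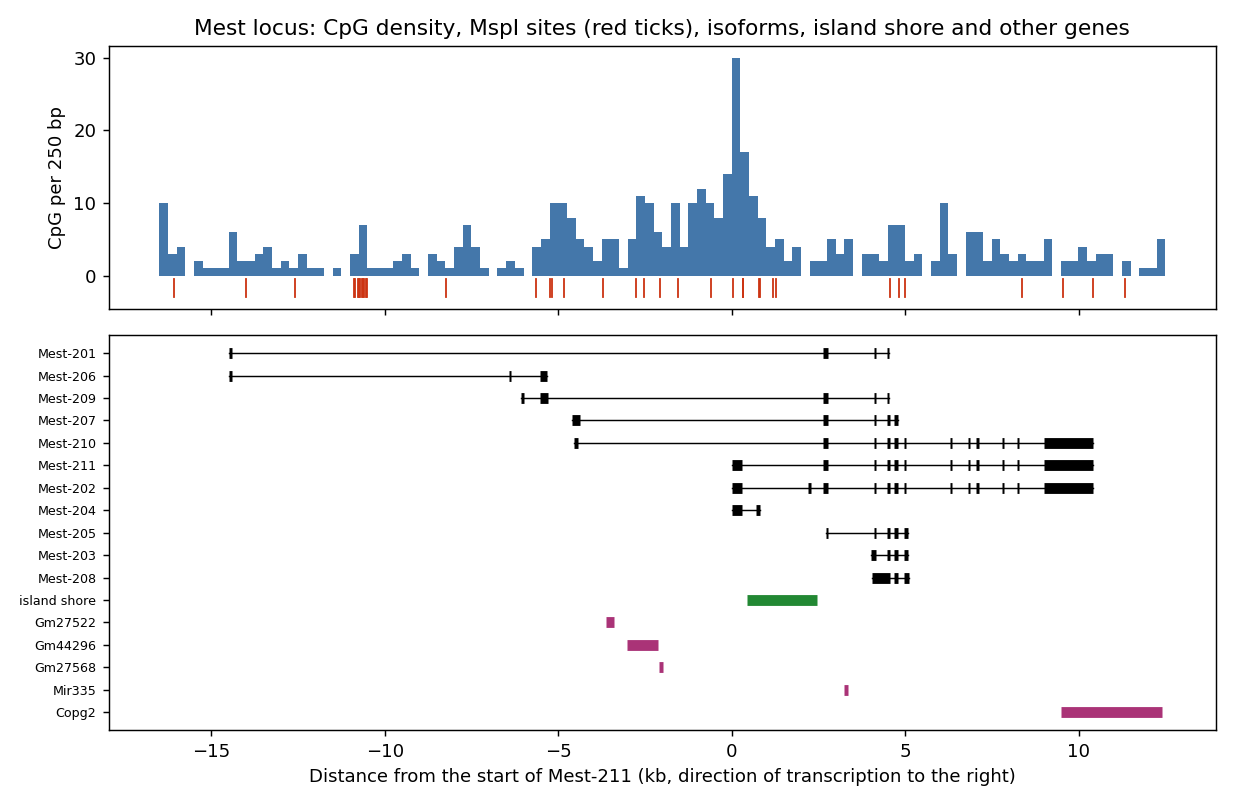
The upper panel plots CpG sites per 250 bp across Mest against distance from the start of Mest-211, with MspI sites as red ticks, and the lower panel plots the exons of each transcript, the island shore and the other genes of the interval. The CpG peak of 30 per bin sits at the start of Mest-211, and the shore begins just downstream of it.

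The stretches that bear on the promoter and shore rows are given below from the GRCm38 plus strand, 5' to 3', with every CpG in capitals. The first is the 250 bases before the start at 30738050 (RefSeq promoter window, chr6:30737800-30738049, 14 CpGs), the second is the window before the upstream start at 30733506, ended where another Mest exon begins (chr6:30733256-30733453, 4 CpGs), the third is the part of the first intron between exon 1 and the shore (chr6:30738336-30738498, 11 CpGs, 2 MspI sites) and the fourth is the window of 300 bases with the most CpGs in the shore (chr6:30738565-30738864, 14 CpGs, 2 MspI sites).
Main start: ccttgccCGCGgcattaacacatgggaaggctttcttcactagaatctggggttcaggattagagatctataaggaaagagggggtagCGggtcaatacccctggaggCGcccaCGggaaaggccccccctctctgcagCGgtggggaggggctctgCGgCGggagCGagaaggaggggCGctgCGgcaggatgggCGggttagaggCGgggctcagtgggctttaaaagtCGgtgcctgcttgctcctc
Upstream start: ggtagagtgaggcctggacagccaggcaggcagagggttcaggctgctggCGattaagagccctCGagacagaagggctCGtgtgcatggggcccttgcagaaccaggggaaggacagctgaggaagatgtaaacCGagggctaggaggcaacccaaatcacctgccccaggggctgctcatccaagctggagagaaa
First intron: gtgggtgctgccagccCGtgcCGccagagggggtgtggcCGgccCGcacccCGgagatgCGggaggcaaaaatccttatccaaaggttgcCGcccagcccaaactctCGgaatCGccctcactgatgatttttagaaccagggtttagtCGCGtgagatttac
Shore: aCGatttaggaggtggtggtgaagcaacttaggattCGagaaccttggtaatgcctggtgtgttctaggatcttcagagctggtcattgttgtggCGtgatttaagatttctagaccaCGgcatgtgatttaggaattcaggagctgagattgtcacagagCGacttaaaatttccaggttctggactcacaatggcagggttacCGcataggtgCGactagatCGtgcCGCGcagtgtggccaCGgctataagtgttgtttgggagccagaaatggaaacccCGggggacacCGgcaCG

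Neither promoter window holds a CCGG. Of the 32851 RefSeq promoter windows of 250 bases in the mouse, 47.1% hold at least 1, and their median CpG number was 6. The CpGs of these 2 windows can therefore be read only on MspI fragments cut outside them. Both MspI sites of the shore window stand near its 3' end, and 20 of the 35 CpGs of the shore lie within 150 bases of an MspI site.

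The Mest promoter was nearly unmethylated in ESCs and methylated at an intermediate level in every other group. Since pESCs and their PGCLCs carry only maternal genomes, an intermediate level there does not by itself show a kept imprint. The same holds for ESC-PGCLCs, whose starting ESCs had a mean of 6.74%, and for PGCs. In E12.5 PGCs and both kinds of PGCLC, the Ddx4 and Dazl promoters had means of 43.6% to 47.4%. Both are germ cell genes outside the imprinted lists used below. The 2 ESC libraries read 6.73% and 6.76%. The pESC libraries read 47.6% and 44.7%. Among the germ cells of the embryo, the E9.5 PGC libraries read 48.6% and 49.0% and the E12.5 PGC libraries 37.2% and 28.8%. The 2 PGCLC groups had means between those stages. Their libraries read 34.5% and 36.7% after induction from ESCs and 45.2% and 38.7% after induction from pESCs. Both ESC-PGCLC libraries lay within the range of the E12.5 PGC libraries. The 2 libraries of E12.5 PGCs and those of pESC-PGCLCs were 8.44 and 6.43 points apart, a wider gap than the 0.0356 to 2.89 points of the other groups.

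The island shore followed the promoter closely. The ESC libraries read 7.08% and 5.11% there, the pESC libraries 54.3% and 53.6%, and the E9.5 PGC libraries 55.0% and 54.0%. Levels were lower at E12.5 (44.0% and 37.3%) and after induction from ESCs (39.2% and 41.6%), and the pESC-PGCLC libraries stood 8.98 points apart at 48.3% and 39.3%. The groups with the lowest and highest shore level were the same as for the promoter.

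Gene body rows were methylated more heavily. The introns read 15.0% and 17.5% in ESCs against 64.4% and 59.6% in pESCs, and 63.3% and 62.8% in E9.5 PGCs against 45.7% and 45.9% in E12.5 PGCs. The introns of ESC-PGCLCs (47.7% and 45.5%) were lower than those of pESC-PGCLCs (55.9% and 54.6%), and these libraries did not overlap. Exons stood apart from the other 3 regions in ESCs, where they were methylated at 52.6% and 54.4%. In the remaining groups the exons read 67.8% and 71.5% (pESCs), 75.1% and 72.5% (E9.5 PGCs), 48.6% and 49.8% (E12.5 PGCs), 62.9% and 59.2% (ESC-PGCLCs) and 58.7% and 63.3% (pESC-PGCLCs).

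**Figure D2:**
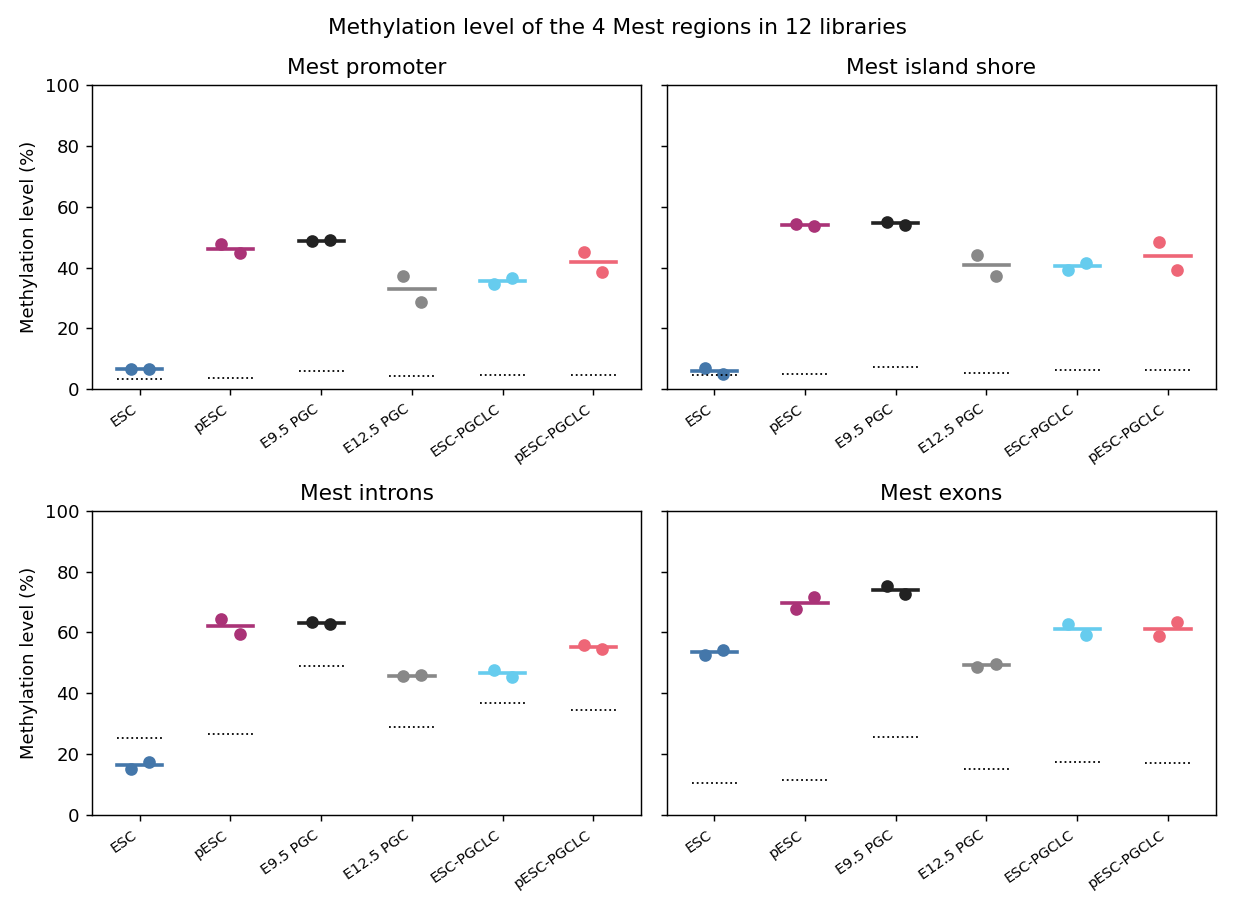
Each panel plots the methylation level (%) of 1 Mest region in every library, with points for the libraries, a coloured line for the group mean and a dotted line for the median of all features of the same class in that group. ESCs sit at 5.11% to 7.08% in the promoter and shore panels, while their exons sit at 52.6% and 54.4%.

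Within a library the regions kept nearly the same order. Exons were the highest of the 4 in 12 of 12 libraries, introns exceeded promoter and shore in 12 of 12, and the promoter was the lowest in 11 of 12, the exception being 1 ESC library whose shore was lower by 1.65 points. The exons exceeded the promoter by 45.9 and 47.6 points in the ESC libraries and by 11.4 to 28.5 points in the others.

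Set against all features of its class, the Mest promoter stood higher in pESCs than in ESCs. Of the promoters with a level, 60.1% and 60.3% were below Mest in the ESC libraries, 86.1% and 87.2% in the pESC libraries, and 71.7% to 80.7% in the PGC and PGCLC libraries. The introns moved further, since 37.3% and 42.8% of all intron rows were below Mest in ESCs and 96.2% and 95.5% in pESCs. The median promoter of the series was between 3.17% and 6.46% in every library.

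Ordered by mean, the promoter levels were 6.74% ± 0.0252 for ESCs, 33.0% ± 5.97 for E12.5 PGCs, 35.6% ± 1.59 for ESC-PGCLCs, 41.9% ± 4.55 for pESC-PGCLCs, 46.2% ± 2.04 for pESCs and 48.8% ± 0.304 for E9.5 PGCs (SD, n = 2 each). ESCs were separated from the next group by 22.0 points between nearest libraries. E12.5 PGCs and ESC-PGCLCs overlapped, as did pESC-PGCLCs and pESCs. The nearest libraries of ESC-PGCLCs and pESC-PGCLCs were 2.00 points apart, and those of pESCs and E9.5 PGCs 0.928 points apart. For the exons the order began instead with E12.5 PGCs at 49.2% ± 0.866, below the ESCs at 53.5% ± 1.27, with 2.80 points between the nearest libraries.

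Differences between groups were tested with limma on the log2 odds of the level over all features at once, and a region counted as called at a Benjamini-Hochberg adjusted p below 0.05 together with a gap of 10 percentage points or more between group means. With 2 libraries a group, an exact permutation test of a single region cannot give a p below 0.33. Several comparisons share a group, so their values are set side by side and are not separate support for each other.

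The first comparison asked how the stem cells with 2 maternal genomes differed from ordinary female ones. The pESC means exceeded the ESC means by 39.4 points at the promoter, 47.8 at the shore, 45.7 in introns and 16.2 in exons, and the libraries of the groups did not overlap in any of the 4 regions. On the log2 odds scale the promoter difference was 3.39 ± 0.32 (SE; 95% interval 2.62 to 4.16) and the shore difference 3.98 ± 0.34. None of the 4 was called: with limma the adjusted p was 0.121, 0.0995, 0.205 and 1 in the order given, and the unadjusted p was 2.55e-05, 1.36e-05, 7.13e-05 and 0.0218. Of all 148012 features tested 0% were called (0 features), although 2054 had an unadjusted p under 0.05, and the smallest adjusted p of any feature was 0.0795. Over all features the median difference was -0.008 points, and over the 19766 promoters it was 0.0265 points. The calls depended on the fit: in a fit of all 12 libraries, where 70 features were called, and in a fit without repeat elements, where 36 were, promoter, shore and introns of Mest were called (adjusted p of 0.000386 and 0.0158 for the promoter). The same 3 were called without pESC replicate 1, with a promoter adjusted p of 0.00155 among 742 features called, and none was called on leaving out any of the other 3 libraries.

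Induction of PGCLCs was compared with the starting cells next. In the ESC line the promoter rose by 28.9 points, from 6.74% to 35.6%, the shore rose by 34.3 points and the introns by 30.4 points, and each was called with limma (adjusted p of 0.00021, 0.000238 and 0.00058). The exons, already at 53.5% in ESCs, differed by 7.57 points (adjusted p of 0.242). Thus 3 of 4 regions were called higher, beside 13.7% of the 136848 features tested, and the median difference over all features was 1.26 points. These 3 calls held on leaving out any 1 of the 4 libraries.

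The pESC line did not give such a difference. From pESCs to pESC-PGCLCs the promoter differed by -4.26 points, the shore by -10.2, the introns by -6.76 and the exons by -8.70, and 0 of 4 regions were called with limma (adjusted p of 0.619, 0.244, 0.352 and 0.189; 1 of 4, the exons, had an unadjusted p under 0.05), beside 9.66% of all features called in either direction. The 95% interval of the promoter difference on the log2 odds scale ran from -0.75 to 0.26. The size rested on single libraries, since without pESC-PGCLC replicate 1 the promoter and shore differed by -7.47 and -14.7 points and without pESC-PGCLC replicate 2 by -1.04 and -5.69, and without pESC replicate 1 the promoter differed by -2.81. When every library was first centred on its own median, all 4 Mest regions were called lower in pESC-PGCLCs, the promoter by -14.3 points (adjusted p of 0.00952), but 33.3% of all features were then called and the median difference over all features was -9.47 points.

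The difference between the 2 lines in their change on induction was tested as an interaction. The change in the pESC line minus that in the ESC line was -33.1 points at the promoter, with -3.01 ± 0.30 on the log2 odds scale (SE; limma adjusted p of 0.0488), and -44.5 points at the shore (adjusted p of 0.0376). Both were called, beside 0.0183% of 136848 features called in this direction. The introns (-37.1 points, adjusted p of 0.105) and the exons (-16.3 points, adjusted p of 1) were not called. Neither call outlasted the loss of a library: leaving out each of the 8 libraries in turn, ESC, pESC, ESC-PGCLC and pESC-PGCLC replicates alike, gave a promoter adjusted p of 0.0798 to 0.308 and a shore adjusted p of 0.0594 to 0.223, at differences of -36.3 to -29.9 and -48.9 to -40.0 points.

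Between E9.5 and E12.5, when PGCs of the embryo lose methylation across the genome, all 4 Mest regions fell. The promoter fell by 15.8 points, from 48.8% to 33.0% (-0.94 ± 0.21 on the log2 odds scale, limma adjusted p of 0.00905). The exons fell by 24.7 points (adjusted p of 0.000231), the introns by 17.2 (0.000236) and the shore by 13.9 (0.0179). Beside these 4 of 4 regions, 49.6% of the 137202 features tested were called lower, and the median difference over all features was -11.5 points. The shore call was lost without E12.5 PGC replicate 2 (adjusted p of 0.0924), without E9.5 PGC replicate 1 (0.0731) or without E9.5 PGC replicate 2 (0.0599), while promoter, introns and exons stayed called on leaving out any of the 4 libraries. After centring on the library medians none of the 4 was called, and the promoter and shore differences became 0.207 and 2.13 points, where the median difference over all features was 4.48 points.

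All 4 regions were also called lower in ESC-PGCLCs than in E9.5 PGCs. The promoter was lower by 13.2 points (limma adjusted p of 0.0289) and the shore by 14.1 (0.0239). The introns were lower by 16.4 points (limma adjusted p of 0.00115) and the exons by 12.8 (0.00566), against 29.6% of all features called lower. Introns and exons stayed called on leaving out any library. The promoter and shore lost their calls on leaving out any 1 of the ESC-PGCLC or E9.5 PGC libraries, with adjusted p of 0.0774 to 0.118 and 0.0674 to 0.102. After centring on the library medians 0 of 4 were called, and the promoter difference was -3.07 points beside a median of 5.12 over all features.

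In pESC-PGCLCs 1 of 4 regions was called lower than in E9.5 PGCs, beside 40.2% of all features. The exons were lower by 12.9 points (limma adjusted p of 0.0039). The introns differed by -7.81 points, under the size required for a call (adjusted p of 0.00821), the shore by -10.7 (0.0524) and the promoter by -6.84 (0.183; 95% interval -0.91 to 0.13 on the log2 odds scale). The shore was called without pESC-PGCLC replicate 1 (adjusted p of 0.0211), when its difference was -15.2 points and that of the promoter -10.1. Without pESC-PGCLC replicate 2 the differences were -6.26 and -3.62 points. After centring no region was called and the promoter difference turned to 5.21 points, beside a median of 4.58 over all features.

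The level of each group as a share of the E9.5 mean puts these differences on one scale. This is a description in which the 3 groups share the E9.5 libraries. The Mest promoter stood at 67.6% of the E9.5 mean at E12.5, 73.0% after induction from ESCs and 86.0% after induction from pESCs. Over the 6554 promoters with at least 20% methylation at E9.5 the median share was 63.5%, 78.5% and 71.3%. Mest thus stood above the median promoter in pESC-PGCLCs, where 92.7% of those promoters had a lower share. It stood below the median in ESC-PGCLCs, where 29.7% had a lower share. The introns showed the same pattern, at 87.6% in pESC-PGCLCs against a median of 72.4%, and at 74.0% in ESC-PGCLCs against a median of 78.9%. The exons did not, with 82.6% in pESC-PGCLCs and 82.7% in ESC-PGCLCs, both above the exon medians of 70.8% and 77.7%. By library the promoter share ranged from 70.7% to 75.3% in ESC-PGCLCs and from 79.4% to 92.6% in pESC-PGCLCs.

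PGCLCs were also set against the later PGCs. ESC-PGCLCs differed from E12.5 PGCs by 2.60 points at the promoter (limma adjusted p of 0.606; 95% interval -0.35 to 0.69 on the log2 odds scale), by -0.280 at the shore and by 0.823 in introns. The exons were higher by 11.9 points and were the 1 region called (adjusted p of 0.015), beside 22.2% of all features called higher. That call was lost without ESC-PGCLC replicate 1, E12.5 PGC replicate 1 or E12.5 PGC replicate 2 (adjusted p of 0.074, 0.0698 and 0.0506). In pESC-PGCLCs the exons were likewise higher than in E12.5 PGCs, by 11.8 points (adjusted p of 0.0375), where 6.81% of all features were called higher. Leaving out any of the pESC-PGCLC or E12.5 PGC libraries ended this call (adjusted p of 0.1 to 0.137). The promoter difference was 8.94 points (adjusted p of 0.146), with 5.72 points without pESC-PGCLC replicate 1 and 4.72 without E12.5 PGC replicate 2, and the intron difference 9.43 points (adjusted p of 0.0265), below the 10 points required.

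Between the 2 PGCLC groups no Mest region was called with limma, beside 0.0948% of all features called in either direction. The pESC-PGCLC mean exceeded the ESC-PGCLC mean by 6.34 points at the promoter (adjusted p of 0.387; 95% interval -0.14 to 0.90 on the log2 odds scale), by 3.39 at the shore and by 8.61 in introns. The introns had an unadjusted p of 0.00227 and an adjusted p of 0.128. The exon means were -0.112 points apart. The 39.4 points between the parental lines at the promoter thus stood beside 6.34 points between the PGCLCs made from them, and the latter was 3.12 points without pESC-PGCLC replicate 1 and 9.56 without pESC-PGCLC replicate 2.

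**Figure D3:**
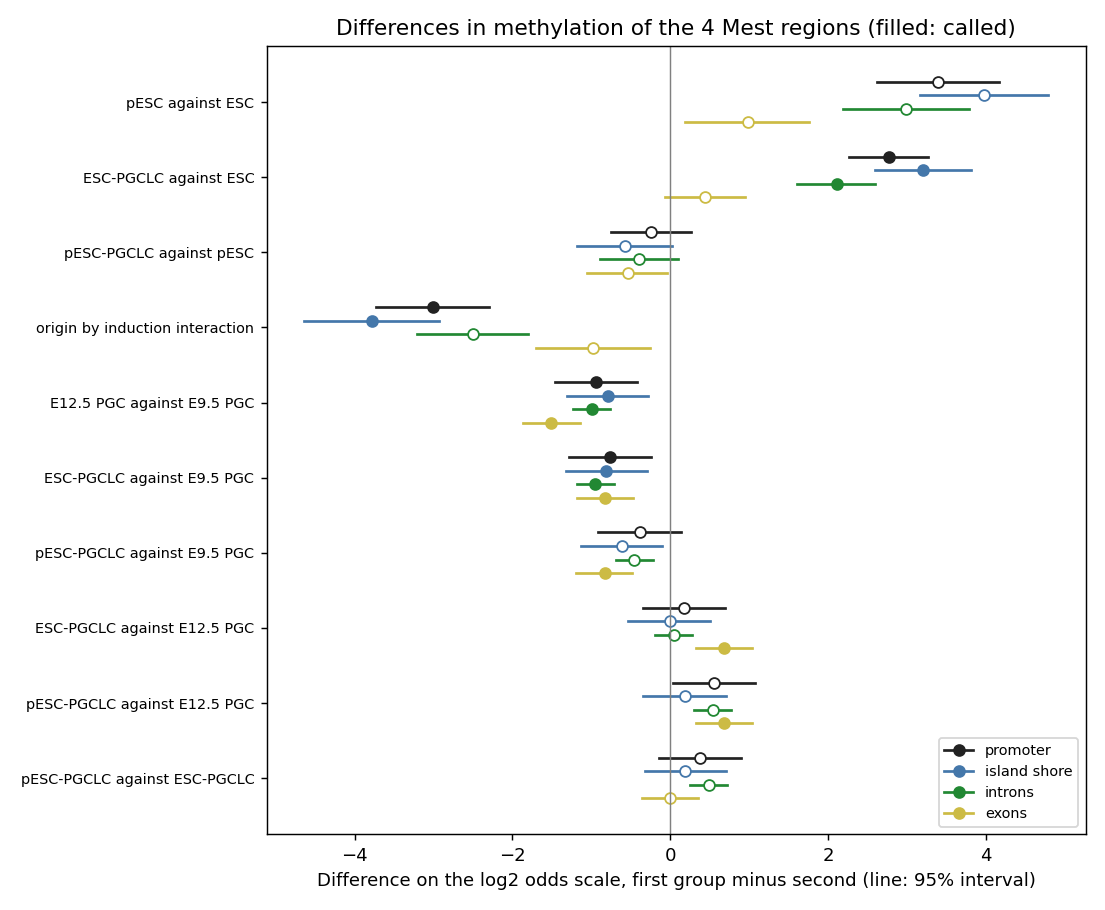
Differences in the 4 Mest regions are plotted on the log2 odds scale for 10 comparisons, each as first group minus second, with the interaction as the change in the pESC line minus that in the ESC line. Lines are 95% intervals and filled points mark calls, with all 4 regions filled for E12.5 PGCs and for ESC-PGCLCs against E9.5 PGCs and none filled for pESCs against ESCs.

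Neighbouring promoters were read for the gap between pESCs and ESCs, at sites too few to show where along the chromosome it ended. Of 11 other genes within 250000 bp with a promoter level in all 12 libraries, 9 of the 10 nearest are described. Inside Mest lie 3 of them. Mir335, a microRNA gene in an intron of Mest downstream of the shore, had a mean promoter level of 4.82% in ESCs and 52.1% in pESCs. Its PGC means were 46.2% (E9.5) and 35.2% (E12.5), and its PGCLC means were 37.2% (from ESCs) and 41.4% (from pESCs). The annotated RNA gene Gm27522 had 7.12% in ESCs, 41.4% in pESCs, 43.9% and 28.8% in E9.5 and E12.5 PGCs, and 31.8% and 40.9% in the PGCLCs of the 2 lines. These are not separate from the Mest rows, since 1202 of the 2000 bp before Mir335 fall in the Mest shore and the 2000 bp before Gm27522 lie wholly inside Mest.

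A further nested stretch had higher levels in the parthenogenetic cells than in their ESC counterparts, though neither difference was called. The promoter of Gm27568, an annotated RNA gene that starts upstream of Mest-211, read 72.1% to 80.1% in pESCs and 6.67% to 11.9% in ESCs. Its level in pESC-PGCLCs, 63.3% to 64.4%, was above that in E9.5 PGCs, 58.7% to 58.9%, and in ESC-PGCLCs, 37.7% to 47.4%. The difference from E9.5 PGCs, 5.05 points, was not called (limma adjusted p of 0.293). The exon row of the antisense gene Gm44296 had the same value in 12 of 12 libraries, so both rows read the same CpGs. The differences were 66.9 points for pESCs against ESCs (limma adjusted p of 0.0995, not called), 33.3 points for ESC-PGCLCs against ESCs (0.00181, called) and 21.3 points for pESC-PGCLCs against ESC-PGCLCs (0.111, not called).

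At the promoters described outside the gene, the gap between pESCs and ESCs was not seen. Copg2, which encodes a subunit of the COPI vesicle coat and overlaps the 3' end of Mest on the opposite strand, had a promoter level between 1.36% and 2.59% in every library. Its promoter lies at the far end from Mest, beside that of 4930412F09Rik, which read 1.30% to 2.32%. The gene 4930412F09Rik lies 148434 bp from Mest, so these neighbouring promoters stand for 1 distant site on the 3' side. Cep41, a centrosomal protein gene 29798 bp before Mest, read 3.39% to 6.88%. The pseudogene Gm14528, 3444 bp before Mest, read 58.6% in ESCs and 57.9% in pESCs. Cpa1, which encodes a pancreatic carboxypeptidase, read 46.6% in ESCs and differed by -1.57 points in pESCs. Ssmem1 read 46.9% in ESCs and 46.3% in pESCs. Other changes did occur outside the gene. The Ssmem1 promoter was higher by 23.5 points in ESC-PGCLCs than in ESCs (limma adjusted p of 0.0183, called), and the other outside promoters described were not called. From E9.5 to E12.5 Gm14528, Cpa1 and Ssmem1 were called lower, at -20.2, -17.9 and -16.8 points. Copg2, Cep41 and 4930412F09Rik, at 6.88% or less, could not fall by the 10 points of a call. For the 6 described promoters outside the gene pESCs differed from ESCs by -1.57 to 0.637 points, while the 3 nested promoters differed by 34.3 to 66.9 points.

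**Figure D4:**
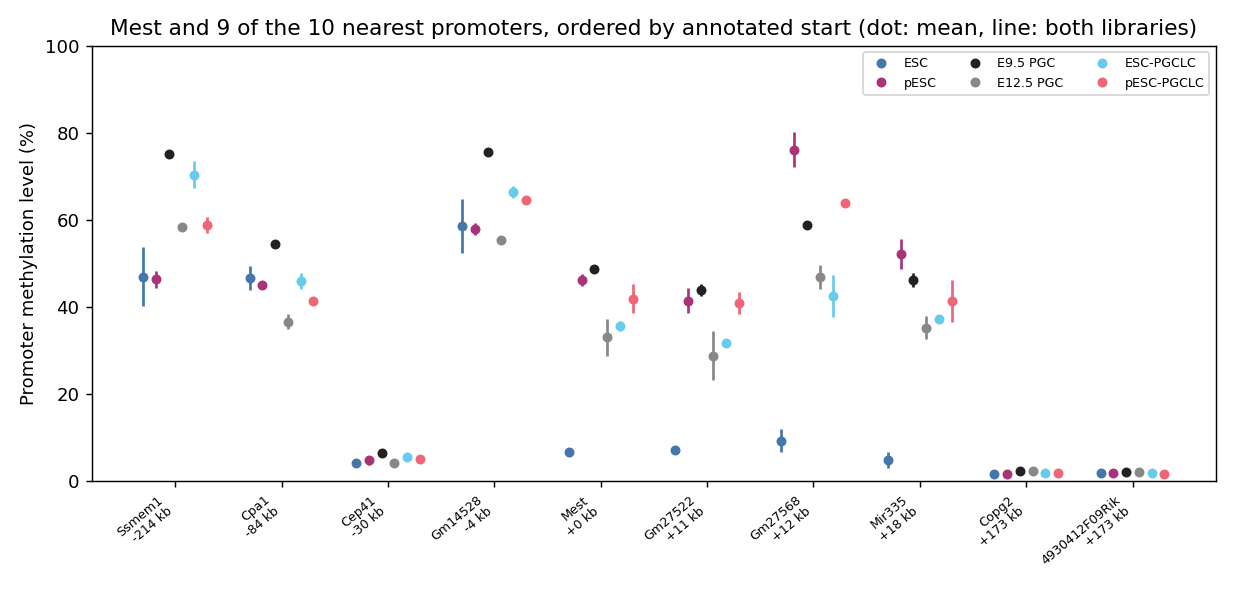
Promoter methylation level (%) is plotted for Mest and 9 of the 10 nearest promoters with a level in all libraries, ordered by annotated gene start, with dots for group means and lines joining both libraries. ESCs stand far below the other groups at Mest and at the 3 genes nested in it, while Cep41, Copg2 and 4930412F09Rik stay below 7% in every group.

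Other imprinted promoters were compared through a list of 25 genes with maternally inherited methylation, of which 14, Mest among them, had a promoter level in all 12 libraries and 8 had no promoter level at all. The members tested, Mest included, numbered 15 for pESCs against ESCs and 14 in the rest. In pESCs against ESCs 14 of 15 were higher, at a median of 20.5 points against 0.0265 over all promoters, and 0 of 15 were called by limma (10 of 15 at an unadjusted p under 0.05). Mest had the next highest difference of the list after Snrpn, a splicing factor gene, with 43.4 points, and the lowest was that of Mkrn3 with -0.659. From ESCs to ESC-PGCLCs 11 of 14 were called higher, at a median of 24.2 points against 0.587 over all promoters, with Mest at 28.9 points. Of all 18812 promoters 12.9% were called there, 2269 of them higher. From pESCs to pESC-PGCLCs 2 of 14 were called higher and 1 lower, beside 9.23% of all promoters, 1609 higher and 127 lower. Gnas and the retrogene Mcts2 rose by 21.8 and 32.0 points, and Snrpn fell by 14.9 points.

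The loss between E9.5 and E12.5 was shared by the list. There 13 of 14 promoters were called lower at a median of -21.5 points, beside -1.49 points and 32.2% called over all promoters, and only Igf2r (-7.01) and Grb10 (-13.4) lay above Mest (-15.8). Against E9.5 PGCs, 12 of 14 were called lower in ESC-PGCLCs and 12 of 14 in pESC-PGCLCs, beside 21.1% and 27.4% of all promoters called. In the latter Mest and Snrpn were the 2 not called. These shares are not a like comparison, because a call needs a gap of 10 points. The median promoter read 5.91% in E9.5 PGCs, so most promoters could not be that much lower. The lowest E9.5 mean of the 14 was 22.5% (Igf2r), so all of them could. Against E12.5 PGCs 0 of 14 were called in ESC-PGCLCs by limma (5 of 14 at an unadjusted p under 0.05) and 3 of 14 in pESC-PGCLCs, Peg10, Sgce and Snrpn, beside 14.4% and 5.28% of all promoters. The interaction was called in 4 of 14, beside 0.0372% of all promoters, at -33.1 points in Mest, -34.9 in Zrsr1, -26.6 in Peg10 and -27.4 in Sgce. Peg10 and Sgce start side by side in opposite directions and had near equal means, 36.8% and 37.4% in pESCs. Their rows may read the same CpGs, so in all counts of this list they are not separate support. Igf2r, whose maternally methylated region lies in an intron rather than at the promoter, had the smallest interaction at -4.11.

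**Figure D5:**
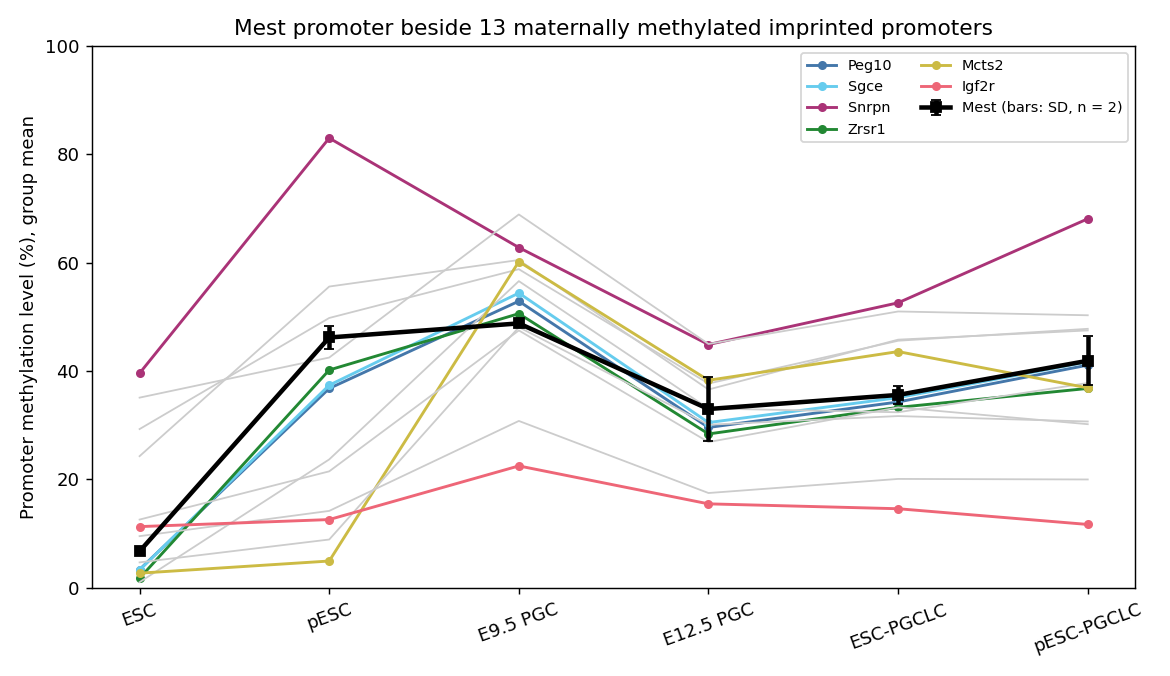
Group means of promoter methylation (%) are plotted for Mest (black, bars SD, n = 2) and 13 other promoters of the maternal list, with lines joining the values of 1 gene across the 6 groups. Peg10, Sgce and Zrsr1 run close to Mest, while Mcts2 stays at 4.95% and Snrpn reaches 83.0% in pESCs.

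Likeness to Mest was measured over the 12 libraries in all 18455 other promoters with complete levels. The 5 promoters with the smallest mean absolute difference were Mir335 (2.64 points), Gm27522 (3.20), Zrsr1 (4.18), Peg10 (4.68) and Sgce (4.82). The first 2 are nested in Mest, and the other 3 are imprinted genes elsewhere: Zrsr1, a splicing factor gene on chromosome 11, and Peg10, a retrotransposon-derived gene, and Sgce, which encodes epsilon-sarcoglycan, on chromosome 6 at 4747306 and 4747207, where they start in opposite directions. Among the 5965 promoters whose level ranged over at least 20 points, the highest Pearson r with Mest were those of Gm27522 (0.991; Spearman rho 0.979), Mir335 (0.979; 0.860), Zrsr1 (0.972; 0.944), Commd1 (0.964; 0.951) and Peg10 (0.944; 0.888). Commd1 is the host gene of Zrsr1, and the Peg10 and Sgce rows may read the same CpGs. These correlations are descriptions over 12 libraries of 6 groups that share the low ESC level, and no test was made of them.

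Among germ cells of the embryo, Zrsr1 had means of 50.6% (E9.5) and 28.4% (E12.5) and Peg10 of 52.9% and 29.6%. In the PGCLCs Zrsr1 had 33.3% (from ESCs) and 36.8% (from pESCs) and Peg10 34.3% and 41.1%. In pESCs the Mest mean was higher than both, at 46.2% against 40.2% and 36.8%. Its mean was also higher in E12.5 PGCs, but the Mest libraries there read 37.2% and 28.8%, the lower of them close to both other means. Other members of the list departed from Mest: Mcts2 read 4.95% and Gnas 8.92% in pESCs, near their ESC levels of 2.71% and 4.70%.

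A list of 5 genes near paternally inherited methylation was set beside the maternal list. In pESCs against ESCs 1 of 5 promoters had a higher mean, and the extremes were H19, a noncoding RNA gene, at -14.7 points and Dlk1 at 0.0458. Rasgrf1, Dlk1 and Zdbf2 read 1.76%, 1.48% and 1.64% in ESCs and 1.73%, 1.53% and 1.37% in pESCs. So near the floor, the direction of their differences carries little. H19 read 61.0% in ESCs and 46.2% in pESCs, and Meg3 26.7% and 19.8%. For pESCs against ESCs none of the 5 was called by limma (0 at an unadjusted p under 0.05), beside 0% of all promoters. None was called on induction of the ESCs (0) or the pESCs (1), beside 12.9% and 9.23% of all promoters. With 5 promoters, 0 calls cannot be told apart from those shares. From E9.5 to E12.5 2 of 5 were called lower, beside 32.2% of all promoters called there. The 2 were H19 and Meg3, at 63.2% and 49% in E9.5 PGCs. Rasgrf1, Dlk1 and Zdbf2 read 1.91%, 1.73% and 1.59% in E9.5 PGCs and could not fall by the 10 points of a call.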

How the data were processed

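The 12 RRBS libraries were grouped by their titles. Per the labels and the study's methods the authors digested DNA with MspI, converted it with bisulfite, aligned reads to mm10 with Bismark 0.16.3 and Bowtie2, and subtracted the rate of failed conversion from the levels. The deposited values are fractions from 0 to 1, the methylated share of the CG calls in a feature, and are printed here as percentages. The authors' coverage minimum and promoter definition are not given in the sources used here. The fractions came without read counts, so depth is unknown, no interval for a single level was computed, and the planned form of the test for levels was used.

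Gene names came from GENCODE M21, where 99.89% of 30073 identifiers were found, and sequences from RefSeq GRCm38.p6. Log2 odds of the level, with 0.01 added to both parts, were fitted by limma 3.58.1 (lmFit and eBayes, R 4.3.3) for features measured in all libraries of the comparison, and p-values were adjusted over all of these by Benjamini-Hochberg. ESCs and pESCs were fitted alone, PGCs and PGCLCs together, and ESCs, pESCs and PGCLCs together for induction. Calls needed an adjusted p under 0.05 and 10 points. The procedure was tested on simulated data. Named genes were the Mest rows, the 10 nearest promoters within 250000 bp (1 of them is not reported here), the 5 most like promoters by each of 2 measures, and imprinted lists. Members and lists were chosen with earlier results of these data known. Alternatives were an offset of 0.1, untransformed levels, centring on library medians, only features with means of 2% to 98%, no repeat elements, a replicate block, a fit of all 12 libraries, and each library left out.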

Additional observations from a re-analysis of the deposited data

Results flagged for a closer look

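The change on induction differed between the pESC and ESC lines by -33.1 points at the Mest promoter and by -44.5 points at the island shore, tested as an interaction in limma (adjusted p of 0.0488 and 0.0376). The promoter rose in both ESC-PGCLC libraries relative to both ESC libraries, while the pESC and pESC-PGCLC libraries overlapped. At the shore the pESC-PGCLC libraries lay below the pESC libraries, with 5.34 points between the nearest. Neither region was called when any of the 8 libraries was left out. The cause was not tested. Groups of 2 libraries are too small for a search for outlying libraries.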

How the results depend on the processing

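Of 456 recomputed differences for the 4 Mest regions, 366 kept direction and call status, 53 lost a call, 18 gained one and 19 changed direction. Only centring and leaving out a library could change a difference in points or its direction. The other settings change the test and not the group means, so there only the call could change. Depth is unknown, so its part cannot be judged. For pESCs against ESCs, leaving out repeat elements and fitting all 12 libraries gave the promoter difference of 39.4 points a call and 3 calls each. Leaving out a library gave 38.0 to 40.9 points and 0 to 3 calls.

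Centring each library on its median changed most comparisons of germ cells, but did not bring the median difference over all features to 0: it went from -11.5 to 4.48 points for E12.5 against E9.5 PGCs and from 0.566 to -9.47 for pESC-PGCLCs against pESCs. E12.5 against E9.5 PGCs gave 0 calls, 0.207 points at the promoter and 2.13 at the shore. ESC-PGCLCs against E9.5 PGCs gave 0 calls and -3.07 points at the promoter. The pESC-PGCLCs against E9.5 PGCs gave 0 calls, 5.21 points at the promoter, 1.31 at the shore and 4.24 in introns. Against E12.5 PGCs, ESC-PGCLCs gave 0 calls, -3.28 at the promoter and -5.06 in introns, and pESC-PGCLCs gave 0 calls and -0.824 at the shore. The exons became 1.83 points between the PGCLC groups and -5.19 for ESC-PGCLCs against ESCs. The pESC-PGCLCs against pESCs gained 4 calls, with -14.3 points at the promoter, where 33.3% of all features were called against 9.66% before.

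The interaction at the promoter, at -33.1 points, lost its call with an offset of 0.1, on untransformed levels and with means of 2% to 98% only. After centring it was -30.4 points without a call. These settings left 0, 0, 1 and 1 calls. For pESC-PGCLCs against E9.5 PGCs, 2 regions were called with the offset of 0.1 and with means of 2% to 98%, and for pESC-PGCLCs against E12.5 PGCs 0 were called in the fit of all 12 libraries.

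Under a replicate block the promoter interaction of -33.1 points was not called (adjusted p of 0.099) and 0 regions were, 2 regions were called for pESC-PGCLCs against E9.5 PGCs and 0 for pESC-PGCLCs against E12.5 PGCs. The block changed no other count. Deviations of same-numbered libraries from their group means correlated at 0.518 for ESCs with pESCs, 0.183 for E9.5 PGCs with ESC-PGCLCs and between -0.0602 and 0.0804 for the other pairs of groups, and with 2 libraries a group the numbers are taken as names only.

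Leaving out a library gave, for ESC-PGCLCs against E9.5 PGCs, -14.3 to -12.1 points at the promoter and 2 calls, and for pESC-PGCLCs against E9.5 PGCs 1 to 2 calls. For ESC-PGCLCs against E12.5 PGCs it gave -1.62 to 6.82 points at the promoter, -3.63 to 3.07 at the shore, -0.302 to 1.95 in introns and 0 to 1 calls. For pESC-PGCLCs against E12.5 PGCs the shore ran from -1.38 to 7.60 with 0 calls. Between the PGCLC groups the shore ran from -1.10 to 7.88 and the exons from -2.41 to 2.19. The interaction ran from -36.3 to -29.9 points at the promoter with 0 calls. Groups left with 1 library were assumed to vary like the others of the fit. The causes were not tested.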
